A study of Homo sapiens with 4 samples.

Results

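Glycogen metabolism genes are described here in 4 RNA-seq libraries labelled Huh7, a human liver cancer line. Cells with an RNA hairpin directed at NME7 gave 2 libraries (shNME7 1 and 2), and cells with a control hairpin gave the other 2 (shCtrl 1 and 2). No other treatment, allele or time is given in the labels, and these also leave out the hairpin sequences, their delivery and whether a line is 1 clone. The labels do not say whether the libraries of 1 group are separate cultures, so the spread behind every p-value may be technical. The set holds 9 of the 58735 genes in the tables, namely PPP1R3B, PPP1R3C, PPP1R3D, GYS1, GBE1, UGP2, PYGL, PYGB and GAA. They were taken by symbol because PPP1R3C is lower in shNME7. The contrast between the groups therefore chose the set, and the PPP1R3C difference is given as a description without a test.

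Glycogen is the branched polymer in which cells store glucose. UDP-glucose is added to a growing chain by glycogen synthase, and the branching enzyme moves short stretches of chain to new branch points. Glycogen phosphorylase removes glucose from chain ends in the cytosol, and acid alpha-glucosidase breaks down glycogen in lysosomes. Protein phosphatase 1 activates synthase and inactivates phosphorylase once a targeting subunit of the PPP1R3 family has brought it to the glycogen particle. Liver uses its glycogen to keep up blood glucose and has its own forms of several of these enzymes, whereas muscle uses glycogen for its own work.

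The knockdown was visible in the targeted gene. NME7 stood at 0.835 and 0.626 FPKM in shNME7 1 and 2, against 3.64 and 3.93 FPKM in shCtrl 1 and 2. FPKM scales fragments by gene length and by library size, and the libraries held between 14877906 and 16991397 fragments recovered from these values. The hepatocyte markers used to check the label were at or near 0. All 9 of them (ALB, AFP, APOA1, APOB, TTR, FGB, SERPINA1, HNF4A and TF) averaged under 1 FPKM, and APOA1, APOB and FGB had 0 fragments in all 4 libraries. Their summed level was 0.110 and 0.0858 FPKM in shNME7 1 and 2, against 0.0564 and 0.106 FPKM in shCtrl 1 and 2. Of 6 fibroblast markers 4 averaged at least 1 FPKM, led by the collagen gene COL3A1 at 75.1 and 76.6 FPKM in shNME7 and 75.8 and 66.9 FPKM in shCtrl. DCN and THY1 went the other way and were near 0. DCN stood at 0.0311 and 0.0733 FPKM in shNME7 and 0.0734 and 0.0724 FPKM in shCtrl. THY1 stood at 0.0112 and 0.0497 FPKM in shNME7 and 0.0530 and 0.0837 FPKM in shCtrl. The summed fibroblast level was 98.7 and 97.3 FPKM in shNME7 and 102.7 and 92.2 FPKM in shCtrl, and so overlapped between the groups. Most of that sum was COL3A1, which overlapped, as did PDGFRB. COL1A1 (8.44 and 9.05 FPKM in shNME7, 10.8 and 9.21 FPKM in shCtrl) lay lower in shNME7 without overlap. So did LUM (13.9 and 9.88 FPKM in shNME7, 14.1 and 14.5 FPKM in shCtrl). Of the other lists, 1 of 5 endothelial markers, 0 of 6 leukocyte markers and 0 of 6 skeletal muscle markers reached that mean. The summed endothelial level was 2.87 and 3.54 FPKM in shNME7, against 2.37 and 2.03 FPKM in shCtrl, without overlap. CDH5, the endothelial cadherin gene, stood at 1.88 and 2.67 FPKM in shNME7 and 1.70 and 1.31 FPKM in shCtrl, and PECAM1 at 0.909 and 0.797 FPKM in shNME7 and 0.559 and 0.615 FPKM in shCtrl, while KDR had 0 fragments in all 4 libraries. The part of this difference in the results below was not tested. The defining hepatocyte genes thus go against the label, and the libraries are called by their labels throughout.

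Promoters of PPP1R3C, GBE1 and GAA are shown first, since the groups did not overlap in these genes. The groups did not overlap in PPP1R3B either, whose promoter was not analysed here. The bases are the 250 before the start site in RefSeq on GRCh38.p14, read 5′ to 3′ on the gene's strand. Capitals mark ACGTG or its reverse complement CACGT, which is a form of the core of the hypoxia response element. They also mark CACGTG, a form of the E-box, in which both overlap. Other forms of that core, such as GCGTG, and other forms of the E-box, such as CAGCTG, were not searched or marked.
PPP1R3C, chr10:91633072-91633321, minus strand: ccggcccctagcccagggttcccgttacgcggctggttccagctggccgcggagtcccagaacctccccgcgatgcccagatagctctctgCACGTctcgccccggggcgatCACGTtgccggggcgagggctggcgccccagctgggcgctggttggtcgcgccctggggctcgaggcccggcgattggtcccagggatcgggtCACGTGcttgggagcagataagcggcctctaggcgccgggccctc
GBE1, chr3:81761646-81761895, minus strand: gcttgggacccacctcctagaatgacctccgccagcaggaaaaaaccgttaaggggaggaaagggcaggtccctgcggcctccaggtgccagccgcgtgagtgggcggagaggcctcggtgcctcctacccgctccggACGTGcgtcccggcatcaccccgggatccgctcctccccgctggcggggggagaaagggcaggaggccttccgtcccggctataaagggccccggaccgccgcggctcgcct
GAA, chr17:80101331-80101580, plus strand: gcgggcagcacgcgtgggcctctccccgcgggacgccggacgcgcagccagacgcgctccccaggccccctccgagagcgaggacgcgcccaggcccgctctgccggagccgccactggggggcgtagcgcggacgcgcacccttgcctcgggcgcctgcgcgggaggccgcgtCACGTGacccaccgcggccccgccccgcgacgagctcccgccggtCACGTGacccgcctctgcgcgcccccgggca

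In the whole window of 300 bases, which adds 50 after the start, the PPP1R3C promoter held CACGTG 45 bases before the start and further ACGTG matches 159 and 138 bases before it. The GAA promoter held CACGTG at 2 places, 76 and 31 bases before the start, and the GBE1 promoter held ACGTG 112 bases before it. Among the other members in the table, PPP1R3D held CACGTG 209 bases before the start and the first of 2 UGP2 promoters held ACGTG 84 bases before it. The windows of GYS1, PYGL and PYGB held neither. Of all 35116 promoters in the table, 21.4% held ACGTG on either strand and 7.26% held CACGTG. The amino acid response element TGATGCAA (0.866% of promoters) and the cyclic AMP response element TGACGTCA (1.85%) were in none of these 9 windows, which come from the 8 members other than PPP1R3B. A match of letters is a description and not a measured binding site.

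The members covered a wide range of levels. Averaged over the 4 libraries, PYGL was highest at 43.3 ± 1.06 FPKM, followed by UGP2 at 33.9 ± 2.96, GAA at 26.5 ± 5.23, GBE1 at 26.4 ± 2.24, GYS1 at 26.0 ± 1.84 and PYGB at 19.8 ± 2.39 FPKM (SD, n = 4). The targeting subunits stood lower, PPP1R3C at 11.4 ± 4.07, PPP1R3B at 3.24 ± 0.448 and PPP1R3D at 3.07 ± 0.130 FPKM. The ranges of neighbours did not overlap between PYGL and UGP2, GYS1 and PYGB, PYGB and PPP1R3C, or PPP1R3C and PPP1R3B. They overlapped between UGP2 and GAA, between GAA, GBE1 and GYS1, and between PPP1R3B and PPP1R3D, so the order within these runs was not resolved. UGP2 lay above GBE1 and GYS1 in every library, with ranges that did not overlap. All 9 members passed the filter of a mean of at least 1 FPKM.

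**Figure D1:**
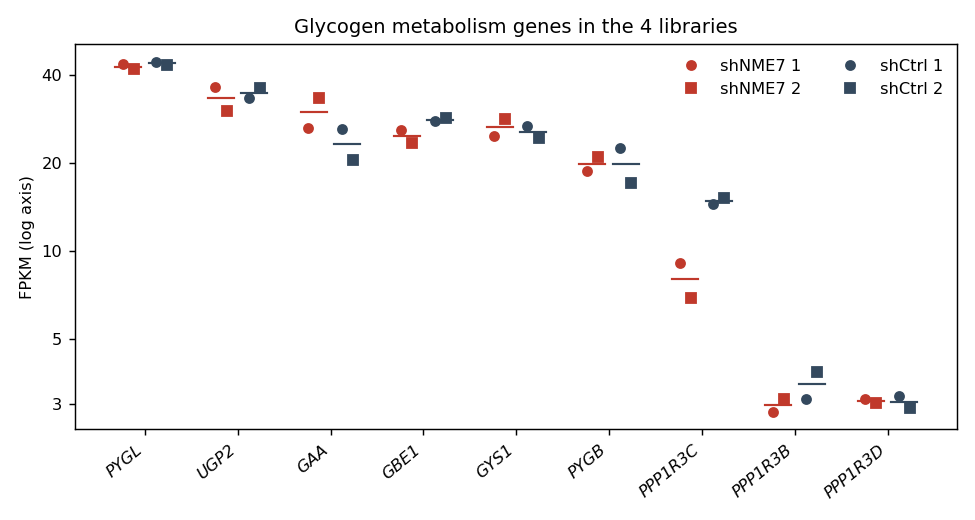
FPKM of the 9 glycogen metabolism genes on a log axis, ordered by mean level, with shNME7 libraries in red and shCtrl libraries in dark blue; horizontal lines are group means of 2 libraries. PPP1R3C stood at 9.12 and 6.90 FPKM in shNME7 and 14.5 and 15.2 FPKM in shCtrl, the widest separation among the members.

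Several forms of these enzymes that are typical of liver were not detected, while the liver phosphorylase was. GYS2, the liver glycogen synthase gene, had 0 fragments in all 4 libraries, which allows at most 0.0564 to 0.0637 FPKM at 3 fragments per library. GYS1, the synthase gene of muscle and most other tissues, was at least 387.5-fold above that floor per kilobase in every library. G6PC, which encodes the liver glucose-6-phosphatase catalytic subunit, and SLC2A2, the liver glucose transporter gene, had 0 fragments too. Their widely expressed relatives G6PC3 and SLC2A1 were at least 294-fold and 376-fold higher against the same floor. The glycogenin gene GYG2, which is the liver form of the protein that starts a glycogen particle, had 0 fragments, while GYG1 stood at 10.2 and 9.12 FPKM in shNME7 and 10.2 and 9.57 FPKM in shCtrl. The muscle forms PYGM (0 to 3 fragments per library) and PPP1R3A (0 fragments) were also at the floor. These zeros stood beside the near-zero hepatocyte markers, whose part in them was not tested. All of 12 widely expressed genes such as ACTB and GAPDH were above 0 in every library, and a floor covers counting error only.

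**Figure D2:**
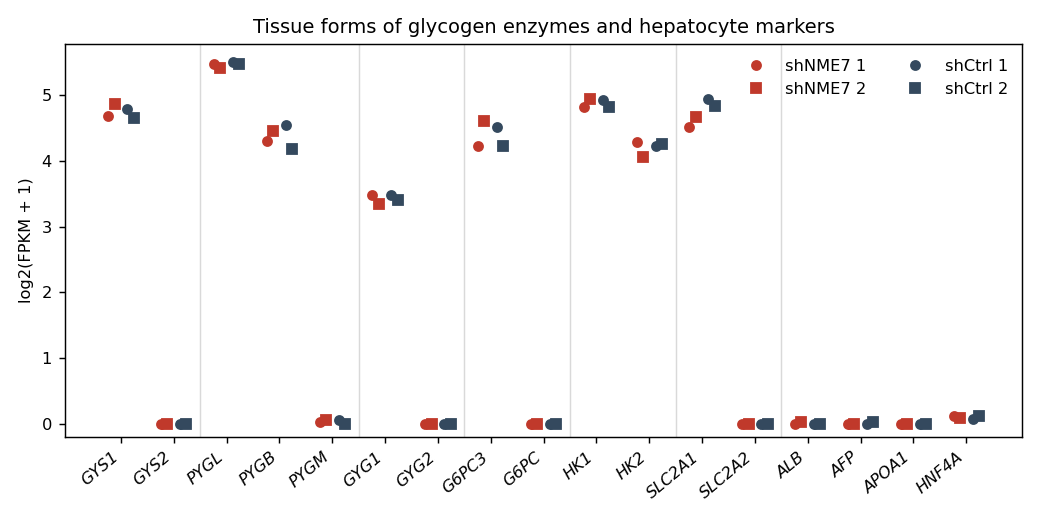
log2(FPKM + 1) in each library for enzyme forms grouped by reaction, with 4 hepatocyte markers at the right; shNME7 libraries are red and shCtrl libraries dark blue. GYS2, PYGM, GYG2, G6PC, SLC2A2 and the markers lie at or near 0 in all 4 libraries, while GYS1, PYGL, PYGB, GYG1, G6PC3, HK1, HK2 and SLC2A1 lie above 3.

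Among the targeting subunits, PPP1R3C was the member that differed most between the groups. PPP1R3C encodes the subunit also called PTG, which binds phosphatase 1, synthase and phosphorylase (ENSG00000119938, chromosome 10, 91628442 to 91633054, minus strand of GRCh38). It stood at 9.12 and 6.90 FPKM in shNME7 1 and 2, against 14.5 and 15.2 FPKM in shCtrl 1 and 2, from 346 and 296 fragments against 583 and 620. The shNME7 libraries were both lower than either shCtrl library, and they also differed from each other by more than counting error. The group means were 8.01 ± 1.57 FPKM in shNME7 and 14.9 ± 0.505 FPKM in shCtrl (SD, n = 2 each), a level 1.86-fold lower. The difference on the log2(FPKM + 1) scale, which understates the change of low genes, was -0.83, and it was -0.65 without shNME7 2 and -1.01 without shNME7 1. In bulk RNA, fewer cells that express a gene and less RNA per cell cannot be told apart.

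PPP1R3B, which encodes the targeting subunit that predominates in liver and is named GL there (ENSG00000173281, chromosome 8, 9136255 to 9151574, minus strand), differed little. It stood at 2.82 and 3.129 FPKM in shNME7 and 3.133 and 3.87 FPKM in shCtrl. The groups did not overlap, but shNME7 2 and shCtrl 1 were nearly level and their 95% Poisson intervals, 2.79 to 3.50 and 2.78 to 3.52 FPKM, covered each other. The log2 difference was -0.18 with a 95% interval of -0.56 to 0.21 (limma-trend, adjusted p 0.839), and with 1 library left out it ran from -0.30 to -0.057. PPP1R3D, a subunit found in many tissues (ENSG00000132825, chromosome 20, 59936668 to 59940297, minus strand), stood at 3.13 and 3.03 FPKM in shNME7 and 3.20 and 2.90 FPKM in shCtrl. These groups overlapped, and the difference of 0.012 had a 95% interval of -0.34 to 0.37 (limma-trend adjusted p 0.989). PPP1R3D lies within FAM217B on the other strand and shares 123 exon bases with it, 3.39% of its exon length, and no label says whether counting used strand, so its level is somewhat uncertain.

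The make-up of the targeting subunits shifted with PPP1R3C. The summed level of PPP1R3A to PPP1R3G was 20.9 and 19.6 FPKM in shNME7, against 26.3 and 26.8 FPKM in shCtrl. Without PPP1R3C the sum was 11.8 and 12.7 FPKM in shNME7 and 11.8 and 11.5 FPKM in shCtrl, and shNME7 1 and shCtrl 1 were nearly level. PPP1R3C accounted for 43.6% and 35.1% of the sum in shNME7, against 55.2% and 56.9% in shCtrl. It stayed the most abundant subunit in each of the 4 libraries, at 2.21 to 4.63 times the level of PPP1R3B per kilobase. These shares contain the PPP1R3C difference that chose the set, so they describe it on another scale. PPP1R3E, the next subunit by the mean over the 4 libraries, stood at 3.86 and 3.72 FPKM in shNME7 and 3.65 and 3.32 FPKM in shCtrl. In shCtrl 2 PPP1R3B lay above it, at 3.87 FPKM. PPP1R3F stood at 1.53 and 2.17 FPKM in shNME7 and 1.30 and 1.05 FPKM in shCtrl, without overlap, and did not pass (log2 difference 0.38, limma-trend adjusted p 0.795).

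**Figure D3:**
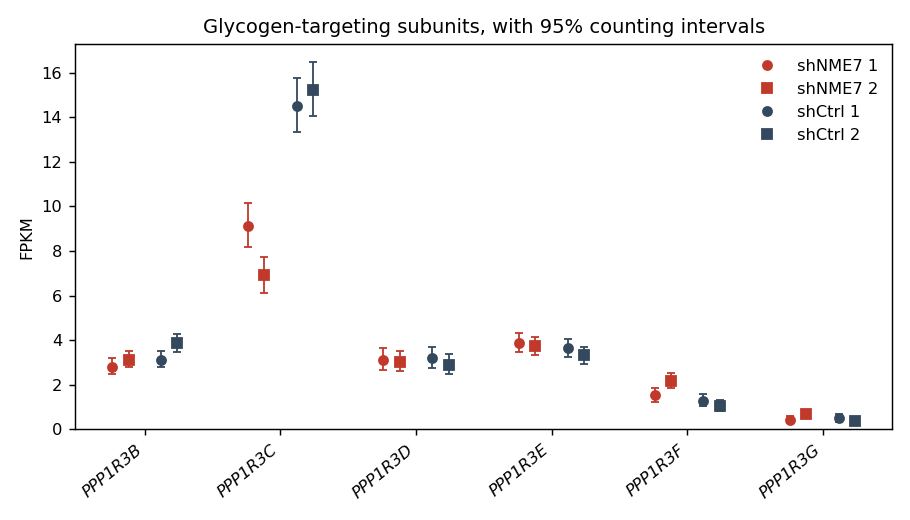
FPKM of 6 glycogen-targeting subunit genes in each library on a linear axis; bars are 95% Poisson intervals from the recovered fragments and cover counting error only. PPP1R3C lies between 6.90 and 15.2 FPKM, with both shNME7 libraries (red) below both shCtrl libraries (dark blue), and the other 5 subunits lie under 4 FPKM.

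Of the synthesis enzymes, GYS1 and UGP2 did not separate the groups. GYS1, the synthase gene (ENSG00000104812, chromosome 19, 48968125 to 48993310, minus strand), stood at 24.7 and 28.2 FPKM in shNME7 and 26.8 and 24.3 FPKM in shCtrl. Its groups overlapped, and the log2 difference of 0.049 (95% interval -0.30 to 0.40) turned to -0.062 once a trend on GC content and length was removed. UGP2, which makes UDP-glucose (ENSG00000169764, chromosome 2, 63840940 to 63891562, plus strand), stood at 36.4 and 29.99 FPKM in shNME7 and 33.4 and 35.96 FPKM in shCtrl. These groups overlapped as well, with a difference of -0.066 (95% interval -0.44 to 0.31) that turned to 0.038 with the trend removed.

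GBE1, the branching enzyme gene (ENSG00000114480, chromosome 3, 81489699 to 81762161, minus strand), stood at 25.9 and 23.4 FPKM in shNME7 and 27.8 and 28.4 FPKM in shCtrl. The groups did not overlap, and the gap of 1.87 FPKM between the nearest libraries was narrower than the 2.51 FPKM between the shNME7 libraries. The log2 difference was -0.18 (95% interval -0.51 to 0.14) and did not pass (limma-trend adjusted p 0.836). The ratio of GBE1 to GYS1 was 1.05 and 0.830 in shNME7 and 1.04 and 1.17 in shCtrl, and so overlapped.

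The phosphorylases did not separate the groups. PYGL, the liver phosphorylase gene (ENSG00000100504, chromosome 14, 50857891 to 50944736, minus strand), stood at 43.5 and 41.9 FPKM in shNME7 and 44.4 and 43.3 FPKM in shCtrl. Its log2 difference of -0.039 (95% interval -0.36 to 0.28) was the steadiest of the members, at -0.067 to -0.012 over 16 alternatives. PYGB, the brain form (ENSG00000100994, chromosome 20, 25248069 to 25298014, plus strand), stood at 18.8 and 20.9 FPKM in shNME7 and 22.5 and 17.1 FPKM in shCtrl, where the shCtrl libraries enclosed both shNME7 libraries. PYGL made up 69.9% and 66.7% of the summed phosphorylase level per kilobase in shNME7 and 66.4% and 71.7% in shCtrl. The ratio of all phosphorylases to GYS1 was 2.52 and 2.23 in shNME7 and 2.50 and 2.49 in shCtrl. The liver form was thus the main phosphorylase in every library, beside a synthase of the muscle type.

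GAA, the lysosomal acid alpha-glucosidase gene that is mutated in Pompe disease (ENSG00000171298, chromosome 17, 80101556 to 80119879, plus strand), was the member with the largest positive difference. It stood at 26.3 and 33.2 FPKM in shNME7 and 26.1 and 20.4 FPKM in shCtrl. The groups did not overlap, but shNME7 1 and shCtrl 1 differed by 0.193 FPKM, within their 95% Poisson intervals. The log2 difference was 0.34 (95% interval -0.10 to 0.79) and did not pass (limma-trend adjusted p 0.795, limma-voom adjusted p 0.651). In limma-trend with the GC and length trend removed it was 0.19, with a 95% interval of 0.029 to 0.36 (adjusted p 0.329). Without that removal it was 0.18 without shNME7 2 and 0.17 without shCtrl 2, against 0.50 without shNME7 1 and 0.51 without shCtrl 1.

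Read against all genes, the members other than PPP1R3C did not stand apart. limma-trend called 0 of these 8 members and 0 of all 12866 tested genes (0%), and limma-voom on recovered fragments called 0 of the 8, against 0.106% of 15112 genes. The targeted gene NME7 was itself missed by limma-trend (adjusted p 0.310) and called by limma-voom (adjusted p 0.000998). A miss in limma-trend therefore says little. At an unadjusted p under 0.05, with no GC and length trend removed, there were 0 of the 8 in both tests, against 6.68% and 7.92% of all genes. The groups did not overlap in 3 of the 8 members, PPP1R3B and GBE1 lower in shNME7 and GAA higher, beside 36.2% of all tested genes (18.4% lower and 17.8% higher). Their median log2 difference was -0.014, and that of all tested genes 0.012. Adjusted p-values of the 8 ran from 0.795 to 0.989 in limma-trend and from 0.651 to 0.991 in limma-voom. A p that misses the threshold does not show equal levels, and the intervals above give the sizes that remain possible.

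The differences of the members followed their GC content. GAA, the most GC-rich member at 64.1% in its longest transcript, had the highest difference, and PYGB (58.5%) and GYS1 (58.7%) had differences just above 0, while GBE1 (43.9%), PPP1R3C (41.9%) and UGP2 (38.9%) were below 0. Across the 9 genes Spearman's rho between GC content and the difference was 0.883, and it was 0.905 without PPP1R3C, as a description over genes that share the same 4 libraries. Over 12857 tested genes rho was 0.411, and the median difference was -0.11 in genes of 35% to 40% GC and 0.16 in genes of 60% to 65%. With the GC and length trend removed from each library, PPP1R3C kept its difference at -0.82 without overlap of the groups. GBE1 was then at -0.12 and GAA at 0.19, their groups still apart, and the PPP1R3B groups overlapped at -0.13. The groups then did not overlap in 3 of the 9 members, beside 47% of all 12857 genes. The differences of GYS1, PYGB and PPP1R3D turned negative (-0.062, -0.092 and -0.013). The part of this trend in the uncorrected differences was not tested further.

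**Figure D4:**
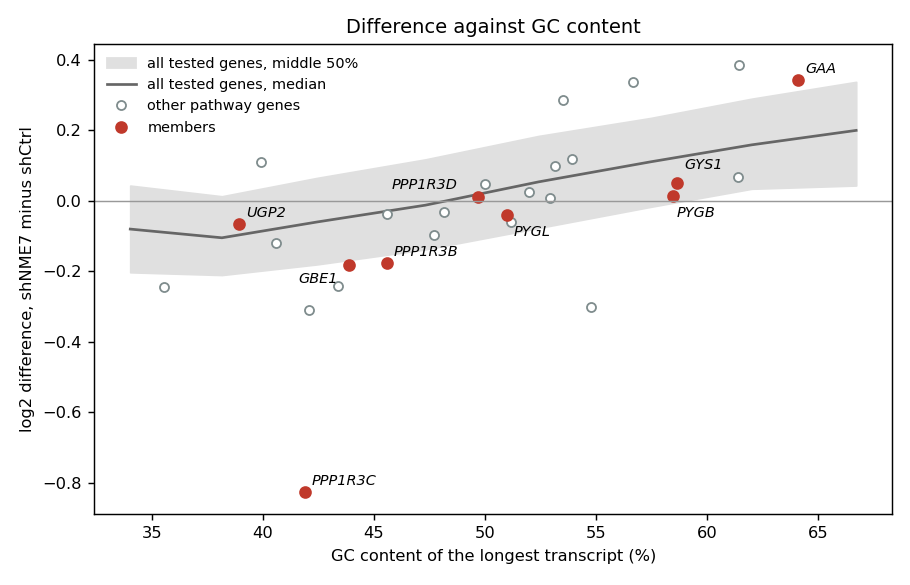
log2 difference (shNME7 minus shCtrl) against GC content of the longest transcript for the 9 members (red) and 19 other pathway genes (open circles); the grey line and band are the median and middle 50% of all tested genes in bins of GC. 8 members lie between -0.18 and 0.34, with UGP2 at 38.9% and GAA at 64.1% GC as the ends of the axis they span, and PPP1R3C lies apart at -0.83.

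Of 30 other glycogen pathway genes on a list drawn up from textbook roles, 19 were tested, and 0 passed in limma-trend or limma-voom. At an unadjusted p under 0.05 there was 1 of 19 in limma-trend and 2 of 23 in limma-voom, beside 6.68% and 7.92% of all genes. The mean was lower in shNME7 for 9 and higher for 10, where 47.8% of all tested genes were lower. The groups did not overlap in 8 of the 19, of which 3 were lower and 5 higher, beside 36.2% of all tested genes (18.4% lower and 17.8% higher). The median log2 difference was 0.0079. Of the 11 below the filter, 6 had 0 fragments in all 4 libraries (GYG2, GYS2, PPP1R3A, NHLRC1, G6PC and SLC2A2).

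The 6 pathway genes with the largest differences and at least 5 FPKM were SLC37A4, GSK3B, SLC2A1, PHKA2, PPP1CB and PPP1CC. SLC37A4, the glucose-6-phosphate transporter gene of the endoplasmic reticulum, stood at 8.14 and 8.98 FPKM in shNME7 and 6.93 and 6.20 FPKM in shCtrl (log2 difference 0.34, limma-trend adjusted p 0.746). PHKA2, a regulatory subunit gene of phosphorylase kinase, stood at 5.18 and 6.32 FPKM in shNME7 and 4.35 and 4.68 FPKM in shCtrl (0.29, adjusted p 0.795). Both lay higher without overlap and did not pass. GSK3B, a kinase that inhibits glycogen synthase, stood at 13.0 and 12.2 FPKM in shNME7 and 15.4 and 16.4 FPKM in shCtrl (-0.31, limma-trend adjusted p 0.754).

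SLC2A1, the widely expressed glucose transporter gene, stood at 22.0 and 24.3 FPKM in shNME7 and 29.8 and 27.7 FPKM in shCtrl (-0.30, limma-trend adjusted p 0.787). GSK3B and SLC2A1 lay lower without overlap and did not pass. The phosphatase 1 catalytic subunit genes PPP1CB and PPP1CC had their lowest level in shNME7 2. PPP1CB stood at 49.8 and 37.4 FPKM in shNME7 and 49.0 and 53.8 FPKM in shCtrl, with groups that overlapped (-0.25), and its difference was -0.043 without shNME7 2. PPP1CC stood at 37.8 and 30.7 FPKM in shNME7 and 37.7 and 43.4 FPKM in shCtrl, again with overlap (-0.24), and its difference was -0.094 without shNME7 2. With the GC and length trend removed, PPP1CB was at -0.14 and PPP1CC at -0.16. Their groups then did not overlap, as in 47% of all genes, and neither gene passed (limma-trend adjusted p 0.476 and 0.493).

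**Figure D5:**
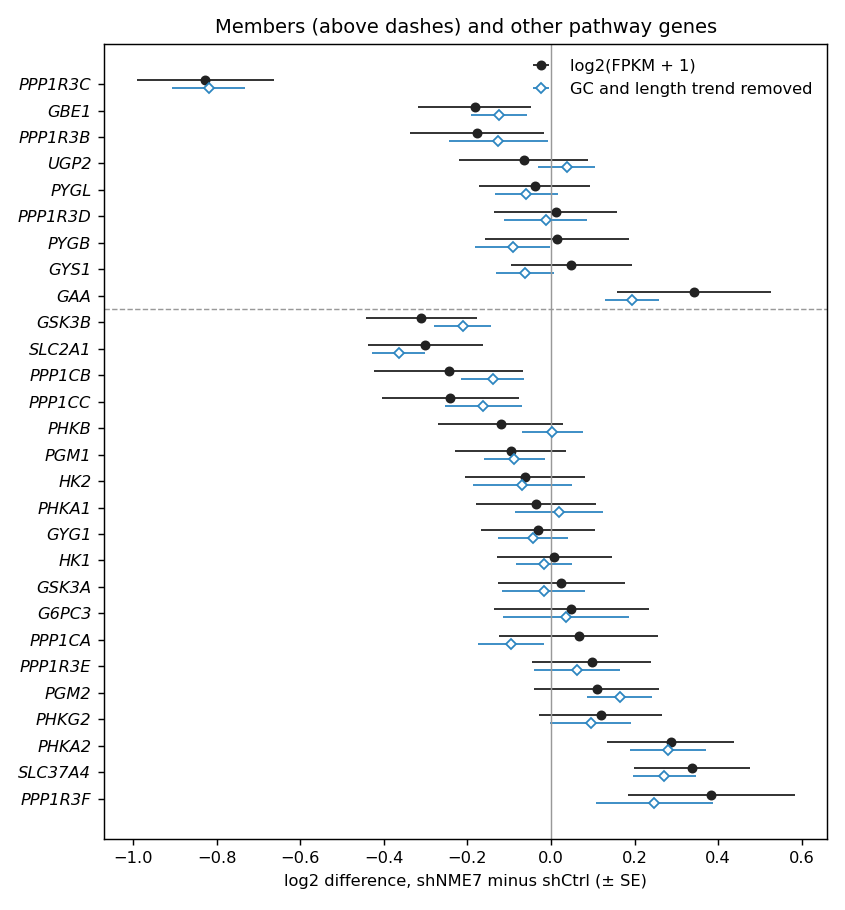
log2 difference (shNME7 minus shCtrl) with its SE for the 9 members above the dashed line and the 19 tested pathway genes below it, on log2(FPKM + 1) (black) and with the GC and length trend removed (open blue diamonds). PPP1R3C stands at -0.83 and -0.82 on these scales, and every other gene lies between -0.37 and 0.38.

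The replicates put a limit on what these libraries can show. The 95% Poisson intervals of shNME7 1 and 2 did not overlap in 6 of the 9 members and those of shCtrl 1 and 2 in 4 of the 9, so the libraries of a group differed by more than counting error in GYS1, UGP2, PYGB and GAA in both groups. The largest gaps were in GAA and PYGB, which differed 1.28- and 1.32-fold between the shCtrl libraries, and in PPP1R3C, which differed 1.32-fold between the shNME7 libraries. The median absolute gap between replicates over the members was 0.15 in shNME7 and 0.11 in shCtrl on the log2 scale, against 0.21 and 0.16 over all tested genes. These gaps also changed with the GC and length trend removed. GAA then stood at log2 values of 4.88 and 4.84 in shNME7 and 4.67 and 4.66 in shCtrl. The gaps of GAA, GYS1, UGP2 and PYGB were then smaller in both groups. Those of PPP1R3B, PPP1R3D and PYGL in shNME7 and of GBE1 in shCtrl were larger. The smallest two-sided p of an exact permutation test of 2 against 2 libraries is 0.333, so no single gene can pass by that test.

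The genes whose profile over the 4 libraries was most like that of PPP1R3C came from outside the glycogen pathway. Likeness was the Euclidean distance between log2(FPKM + 1) values centred on each gene's mean, among 7179 protein-coding genes with a mean of at least 5 FPKM. The PPP1R3C profile holds the difference that chose the set, so its nearest genes are lower in shNME7 by construction. Most candidates lie outside the pathway, so neighbours from outside it were likely from the start. The nearest were NDRG1 (distance 0.0871), AMIGO2 (0.120), PSAT1 (0.130), SERTAD4 (0.142) and NCOA7 (0.145). NDRG1, which is known to respond to hypoxia and other stresses, stood at 51.5 and 40.3 FPKM in shNME7 and 84.5 and 81.4 FPKM in shCtrl. PSAT1, a serine synthesis enzyme gene, stood at 119.8 and 102.1 FPKM in shNME7 and 193.3 and 187.2 FPKM in shCtrl. Among the members GBE1 was nearest to PPP1R3C, at a distance of 0.663 that would rank 919 in this list, and GAA was farthest at 1.30.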

How the data were processed

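The values are FPKM per gene as deposited, in 1 table for each library, a unit named per the file headers. HISAT2 2.0.5 and build hg18 are listed per the submitters' processing notes, while the counting tool and annotation are not given in those notes. GENCODE release 29 holds all 58735 gene IDs and gave names, exon lengths and coordinates on GRCh38. FPKM times summed exon length gave whole multiples of 1 step per library (100% of values above 0 within 0.01 of a whole number), and these were taken as fragments.

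The main test was limma-trend (limma 3.58.1, R 4.3.3) on log2(FPKM + 1) over the 12866 genes with a mean of at least 1 FPKM, with group as the only term, two-sided and adjusted by Benjamini-Hochberg at 0.05. Alternatives were a pseudocount of 0.1, no filter (genes above 0 in at least 1 library), a block on the replicate number, leaving out each library, limma-voom on fragments (15112 genes averaging at least 10) and removal of a loess trend (span 0.3) on GC content and exon length. After seeing the data, the block with that trend removed, a crossed pairing and limma-voom with a library left out were added. The tests were tested on simulated data. Members and lists were chosen with earlier results of these data known. Named pathway genes are the 6 with the largest difference and at least 5 FPKM in the higher group, as none passed, plus GYS2, PYGM and PPP1R3A. Other pathway genes named were chosen after their values were seen. Promoter bases are from RefSeq. Some genes of the pathway and marker lists are not reported here and are left out of the lists' counts and sums.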

Additional observations from a re-analysis of the deposited data

How the results depend on the processing

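The 0 calls over all genes in limma-trend stayed at 0 with a pseudocount of 0.1, without the filter, with the crossed pairing and with the replicate block on trend-removed values. They became 1 with the GC and length trend removed, 122 with the replicate block and 112 to 632 with 1 library left out. limma-voom called 16 genes, 22 with the trend removed, 34 with the replicate block and 430, 41, 39 and 28 without shNME7 1, shNME7 2, shCtrl 1 and shCtrl 2, where the lone library of a group is assumed to vary like the other group. Same-numbered libraries deviated in opposite directions (correlation -0.35 across genes). The labels do not say whether equal numbers mark paired samples, and this correlation cannot settle it. The crossed pairing, chosen after seeing the data, called 0 genes and 0 members. The replicate block called 0 members and 0 pathway genes in limma-trend and in limma-voom.

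Of the 8 members other than PPP1R3C, 0 were called under any alternative run. With PPP1R3C the count was 0 to 1 over the libraries left out, and the 1, without shNME7 1 in limma-trend and in limma-voom, was PPP1R3C itself, which is no test because its lower level chose the set. Its difference lay between -1.11 and -0.65 over 16 alternatives, given as a description. PPP1R3B, GBE1, PYGL and GAA and the 6 named pathway genes kept their sign in 16 of 16. That was partly fixed in advance, since lifting the filter or adding the replicate block leaves the limma-trend difference unchanged. The 6 pathway genes were also picked for large differences in these same libraries. The sign turned where differences were near 0. With the GC and length trend removed, with or without the replicate block, the values were -0.013 for PPP1R3D, -0.062 for GYS1, 0.038 for UGP2 and -0.092 for PYGB. limma-voom with the trend removed gave -0.012, -0.085, 0.055 and -0.11 in that order. With 1 library left out, limma-trend gave -0.042 to 0.065 for PPP1R3D, -0.044 to 0.14 for GYS1, -0.20 to 0.071 for UGP2 and -0.175 to 0.20 for PYGB. limma-voom gave -0.055 to 0.086 for PPP1R3D (-0.0077 without shNME7 1), -0.045 to 0.15 for GYS1 (-0.019 without shCtrl 2), -0.21 to 0.073 for UGP2 and -0.18 to 0.22 for PYGB (-0.062 without shNME7 2). The causes were not tested. The count of members whose groups do not overlap was 4 of 9, beside 36.2% of all tested genes. It was 3 with the trend removed, beside 47% of all genes. Both counts include PPP1R3C, whose lower level chose the set. With 1 library left out the count was 5 to 7, where fewer libraries overlap less often by construction. No share over all genes is given for that setting, so its count is not read as a result. Depth limits the lowest members, PPP1R3B and PPP1R3D, which rest on 170 to 361 fragments per library.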
